A study of Mus musculus with 24 samples.

Results

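The levels of 9 complement genes were followed in sorted mouse lung macrophages and monocytes, taken as the rows of the deposited expression table whose gene symbol was C3, C3ar1, C5ar1, Cfb, Cfp, C2, C4b, Cd55 or Cd59a. All 9 symbols were found, each on 1 row, among 37979 genes in the table, and all 9 passed the filter on low values. The study asked how macrophage and monocyte populations differ between lungs that carry a tumour and naive lungs. It used male C57BL/6 mice aged 10 to 16 weeks, and the tumour was LLC-Luc, a Lewis lung carcinoma line that carries luciferase, injected into the left lung lobe. Each library pooled cells sorted from 3 to 5 mice, and each of the 8 groups had 3 libraries from separate experiments. RNA levels are given in FPKM, fragments per kilobase of transcript scaled to the mapped fragments of the library, which allows levels of different genes to be set side by side.

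The groups were MacB3 cells (CD11b+, Ly6G-, CD64hi, CD11c+) at 3 weeks and at 2 weeks after injection, MacB1 cells (CD11b+, Ly6G-, CD64low, CD11c+) from naive lungs, MacB2 cells (CD11b+, Ly6G-, CD64med, CD11c-) from naive lungs and at 2 and 3 weeks, and MacA cells (SiglecF+, CD11c+) at 2 weeks and from naive lungs. They are written here as MacB3-3wk, MacB3-2wk, MacB1-N, MacB2-N, MacB2-2wk, MacB2-3wk, MacA-2wk and MacA-N. Naive mice were not injected, and all their lung lobes were used, whereas the left lobe with the tumour was taken from injected mice. The tumour cells were given in Matrigel, so the tumour, the injection and the lobe sampled cannot be told apart in any comparison of injected with naive mice. Lane 1 held all MacA libraries, and lanes 2, 3 and 7 held those of MacB, so population and lane cannot be told apart between MacA and MacB. These are sorted populations measured in bulk, so fewer cells that make a transcript and less of it per cell cannot be told apart.

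Complement is a cascade of plasma and cell-made proteins that tags and destroys targets and attracts leukocytes. Its pathways meet at C3: the classical and lectin pathways build a C3-cleaving enzyme from C4 and C2, and the alternative pathway builds one from C3 itself and factor B, which properdin stabilises. Cleavage releases the small peptides C3a and C5a, which act through the receptors C3ar1 and C5ar1 on myeloid cells, while the membrane-bound regulators Cd55 and Cd59a protect host cells by dismantling these enzymes and by blocking pore assembly. Macrophages are known to make several of these proteins locally in tissues, the lung among them.

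Some of the markers used to sort the cells are given here as transcripts, and CD64, by which the MacB populations differ, is not. Siglecf ranged over 125 to 171 FPKM in MacA-2wk and 163 to 303 FPKM in MacA-N, and stayed under 10 FPKM in every MacB library. Ly6g was listed at 0 in all 24 libraries. Other neutrophil markers were present, on a list of 7 with Ly6g (7 of 7 in the table). Its sum was 162 to 434 FPKM in MacB2-2wk and 95.9 to 115 FPKM in MacB3-2wk. At 3 weeks the sum was 219 to 282 FPKM in MacB2 and 132 to 168 FPKM in MacB3. Signal from other lung cells was present as well. The sum of 8 epithelial markers (8 of 8 in the table) was 138 to 587 FPKM in MacB3-2wk, 610.3 to 870.2 FPKM in MacB2-3wk and 123 to 842 FPKM in MacA-2wk, against 3131 to 12889 FPKM in MacB1-N, 3162 to 10316 FPKM in MacB2-N and 656 to 5331 FPKM in MacA-N. The sum of 8 dendritic cell markers (8 of 8) was 768 to 994 FPKM in MacB1-N and at most 84.8 FPKM in every other group, so all comparisons with MacB1-N moved with it. The part of these cells in the results was not tested. Summed over 7 endothelial marker genes, signal was 386 to 529 FPKM in MacB1-N, and MacA-2wk replicate 3 and MacB2-N replicate 3 stood above the other libraries of their groups, with 209 against 59.1 and 66.0 FPKM and with 398 against 112 and 115 FPKM. Within groups, libraries correlated over genes with a median r of 0.911, against 0.83 between groups.

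The 9 genes spanned very different levels. C3, C5ar1 and Cfp were above 10 FPKM in all 24 libraries, Cfb in 20 and C3ar1 in 13. C4b was above 10 FPKM in 2 libraries, and C2, Cd55 and Cd59a in none. C5ar1 reached the highest level of the 9 in a single library, 386 FPKM in MacA-N, and C3ar1 had the widest range, with group means 724-fold apart between MacB3-2wk and MacA-N.

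**Figure D1:**
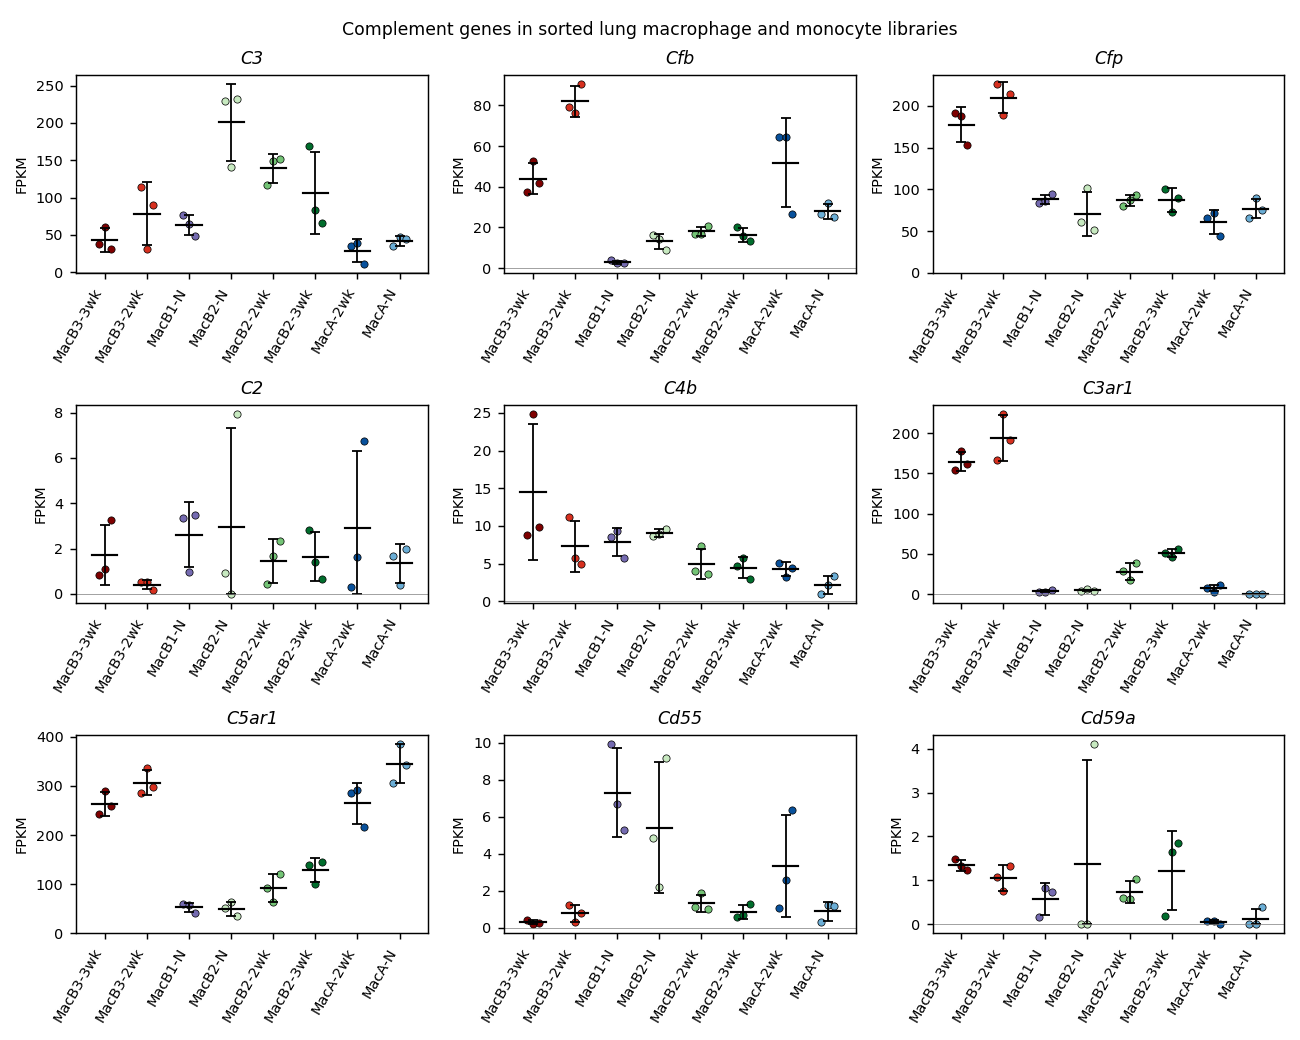
FPKM of the 9 complement genes (vertical axes, linear) in each library (points) of the 8 groups (horizontal axes), with the mean (line) and SD (bars, n = 3, not drawn below 0). C3ar1, Cfp and Cfb were high in MacB3, C5ar1 in MacB3 and MacA, and C3 in MacB2, while C2, Cd55 and Cd59a stayed below 10 FPKM.

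In the GRCm38 annotation (GENCODE M21) the 9 genes are protein coding and lie on 6 chromosomes. C3 (chr17:57203970-57228136), Cfb (chr17:34856374-34862518), C2 (chr17:34862604-34898265) and C4b (chr17:34728380-34743882) are on chromosome 17, and the last 3 belong to the major histocompatibility complex. The others are C3ar1 (chr6:122847138-122856161), C5ar1 (chr7:16246743-16259540), Cfp (chrX:20925454-20931555), Cd55 (chr1:130439027-130462744) and Cd59a (chr2:104095801-104115354, the only one of the 9 on the plus strand). C2 ends 85 bases before Cfb starts, and Gm20547 overlaps both on the same strand. The deposited table gave Cfb and C2 the same locus, so reads may have been divided between them and both are uncertain. C4b has a near copy, C4a, 65209 bases away, listed at no more than 1.86 FPKM, and Cd55 is overlapped by the antisense gene Gm16083, so both may hold reads of their neighbours.

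Promoters of 3 genes are printed because C3ar1 and Cfp were high together in MacB3 cells whereas C3 was not. Each is the 250 bases before the gene's start in RefSeq (GRCm38.p6), 5′ to 3′ along the gene, all on the minus strand: chr17:57228137-57228386 for C3, chr6:122856158-122856407 for C3ar1 and chrX:20931556-20931805 for Cfp. Capitals mark matches to GGGNNNNNCC, a kappaB-like run of letters, on either strand.
C3: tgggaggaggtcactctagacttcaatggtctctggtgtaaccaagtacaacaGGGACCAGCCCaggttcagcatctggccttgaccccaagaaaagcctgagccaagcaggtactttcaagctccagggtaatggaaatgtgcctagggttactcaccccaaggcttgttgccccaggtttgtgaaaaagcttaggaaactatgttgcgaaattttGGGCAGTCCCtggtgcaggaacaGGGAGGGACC
C3ar1: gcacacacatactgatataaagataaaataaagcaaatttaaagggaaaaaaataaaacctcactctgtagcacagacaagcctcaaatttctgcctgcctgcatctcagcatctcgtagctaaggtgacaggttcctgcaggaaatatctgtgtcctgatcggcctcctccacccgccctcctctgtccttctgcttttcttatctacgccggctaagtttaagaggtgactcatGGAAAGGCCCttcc
Cfp: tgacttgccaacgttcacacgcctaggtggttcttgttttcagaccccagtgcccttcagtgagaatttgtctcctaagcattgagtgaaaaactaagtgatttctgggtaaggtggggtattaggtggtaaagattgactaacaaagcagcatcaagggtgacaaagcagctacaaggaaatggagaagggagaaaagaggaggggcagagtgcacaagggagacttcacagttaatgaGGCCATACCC
Windows from 250 bases before to 50 bases after the start were searched on both strands for this motif, for GAAANNGAAA (an ISRE-like core) and for TTCNNNGAA (a GAS-like run). Of the 9 genes, 6 had a window in RefSeq, the exceptions being Cfb, C2 and C4b. The kappaB-like letters stood in C3 at 3 places, beginning at -197, -33 and -10 from the start, and at 1 place each in C3ar1 (-14) and Cfp (-10). C5ar1 held none of the 3 motifs in its window, Cd55 held the kappaB-like letters, and Cd59a held the kappaB-like and ISRE-like letters. The kappaB-like letters occurred in 50.8% of 32851 windows of this length, the ISRE-like core in 3.44% and the GAS-like run in 8.3%.

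Of the receptors, C3ar1, which binds C3a, had its highest level in the CD64hi population and was higher in tumour-bearing lungs in both populations that were sampled with and without a tumour. MacB3-3wk libraries had 155, 178 and 162 FPKM and MacB3-2wk libraries 167, 224 and 192 FPKM. MacB2 cells had 4.41, 5.78 and 3.82 FPKM in naive lungs, 28.3, 17.7 and 38.3 FPKM at 2 weeks and 51.7, 46.4 and 56.3 FPKM at 3 weeks. No library of one MacB2 group overlapped with another, and all were below MacB3. MacA-2wk had 7.96, 2.99 and 11.1 FPKM, against 0.292, 0.124 and 0.389 FPKM in MacA-N, with no overlap. MacB1-N, the other naive CD11b+ population, had 3.03, 2.78 and 5.04 FPKM. In order of group means the 2 MacB3 groups came first and overlapped, then MacB2-3wk, MacB2-2wk and a set of overlapping groups made of MacA-2wk, MacB2-N and MacB1-N, and last MacA-N, with no overlap of libraries between these steps.

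Tests were made with limma on log2(FPKM + 1) over 17156 genes, and a gene was called where the Benjamini-Hochberg adjusted p was under 0.05 and the fold at least 2. All fold changes below are differences on this log2 scale unless FPKM is named. By this test C3ar1 was called in 10 of the 13 comparisons between groups. It was higher in MacB3-2wk than in MacB2-2wk by 2.80 ± 0.32 (SE, adjusted p = 1.25e-05) and in MacB3-3wk than in MacB2-3wk by 1.66 ± 0.32 (adjusted p = 0.0042). With the tumour it rose by 2.31 in MacB2-2wk (adjusted p = 0.000473), by 3.22 in MacB2-3wk (adjusted p = 1.03e-06) and by 2.58 in MacA-2wk (adjusted p = 0.000236), each against the naive cells of the same population. Of all genes tested, 1.66%, 9.67% and 0.729% were called higher in these 3 comparisons, and C3ar1 was the only gene of the 9 called in MacB2-2wk and in MacA-2wk. The fold in MacA is understated by the added 1 because MacA-N was under 0.5 FPKM: with 0.1 added in its place the difference was 4.22.

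How far C3ar1 moved with the tumour was not shown to differ between populations. The response of MacB2 minus that of MacA was -0.27, with a 95% interval of -1.21 to 0.66 (limma, adjusted p = 0.892). With 0.1 added in place of 1 it was -1.71 and again not called (adjusted p = 0.234, with 0.234 to 1 over all alternatives). Between weeks, C3ar1 differed by 0.91 in MacB2-3wk against MacB2-2wk, with all 3 later libraries higher (adjusted p = 0.0921), and by -0.23 in MacB3-3wk against MacB3-2wk, whose libraries overlapped (adjusted p = 0.997). Calls of C3ar1 in MacA-2wk and in MacB2-2wk were lost when only the 2 groups compared were fitted (adjusted p = 0.277, with 3.64e-06 to 0.277 over all alternatives, and 0.0773, with 0.000282 to 0.0773).

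Markers of interstitial macrophages were also higher in MacB3 than in MacB2 and in MacA-2wk than in MacA-N. Their sum over 6 genes (6 of 6 listed were in the table), 3 of which encode C1q chains, was 8445 to 11273 FPKM in MacB3-2wk and 1342 to 1633 FPKM in MacB2-2wk. In MacA-2wk it was 189 to 432 FPKM, against 56.8 to 80.0 FPKM in MacA-N, and 5 monocyte markers (5 of 5 in the table) summed to 18.3 to 30.8 FPKM in MacA-2wk and 4.23 to 9.78 FPKM in MacA-N. Itgam, which encodes CD11b, had 24.5, 10.3 and 17.2 FPKM in MacA-2wk and 1.58, 0.68 and 4.65 FPKM in MacA-N, while MacB libraries had 166 FPKM or more. In MacB2 cells the interstitial macrophage sum overlapped between all 3 groups, with 1501 to 2432 FPKM in naive lungs, 1342 to 1633 FPKM at 2 weeks and 1629 to 2530.4 FPKM at 3 weeks. The sum does not follow each of its genes. Against MacB2-N, C1qb and C1qc were called higher in MacB2-2wk, and C1qa, C1qb and C1qc in MacB2-3wk, as given below. The monocyte sum was lower at each later stage in MacB2, with 3307 to 4547 FPKM in MacB2-N, 2817 to 3057 FPKM in MacB2-2wk and 1329 to 1531 FPKM in MacB2-3wk. So was that of 5 nonclassical monocyte markers (5 of 5 in the table), with 2147 to 2936 FPKM in MacB2-N, 979 to 1647 FPKM in MacB2-2wk and 432 to 835 FPKM in MacB2-3wk. That of 8 fibroblast markers (8 of 8 in the table) was higher, with 20.8 to 45.1 FPKM in MacB2-N, 136 to 208 FPKM in MacB2-2wk and 611 to 1002 FPKM in MacB2-3wk. The part of such cells in the C3ar1 differences was not tested.

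C5ar1, the receptor for C5a, was high in MacA and MacB3 and lower in MacB1 and MacB2. It had 242, 289 and 258 FPKM in MacB3-3wk and 286, 336 and 299 FPKM in MacB3-2wk. MacB2 cells had 50.8, 64.2 and 35.6 FPKM in naive lungs, 92.8, 62.8 and 120.0 FPKM at 2 weeks and 139.8, 101 and 145 FPKM at 3 weeks. MacA-2wk had 285, 292 and 217 FPKM, against 307, 386 and 343 FPKM in MacA-N. All libraries of MacA and MacB3 lay above all those of MacB2 and of MacB1-N, which had 58.7, 57.0 and 41.9 FPKM. The MacA-N, MacB3-2wk, MacA-2wk and MacB3-3wk groups each overlapped the next in order of means.

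C5ar1 was called higher in MacB3-2wk than in MacB2-2wk by 1.77 (95% interval 1.29 to 2.26, limma adjusted p = 6.44e-05). At 3 weeks the difference between MacB3 and MacB2 was 1.04 (interval 0.55 to 1.53, adjusted p = 0.0142). This last value sat close to the 2-fold limit and fell under it after scaling libraries by their protein-coding sum (0.94) or by quantiles (0.98), and the call was lost without MacB2-3wk replicate 2 (0.88, adjusted p = 0.083), MacB3-3wk replicate 2 (0.97, 0.069) or MacB3-3wk replicate 3 (1.05, 0.0523), over a range of 0.00285 to 0.083 for all its alternatives.

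In MacB2 cells C5ar1 rose by 1.36 in MacB2-3wk against MacB2-N (limma, adjusted p = 0.000323), with all 3 libraries higher. At 2 weeks the difference was 0.85 (adjusted p = 0.0661) and libraries overlapped. It passed the threshold without MacB2-N replicate 2 (1.04, adjusted p = 0.0396) or without MacB2-2wk replicate 2 (1.10, 0.0197), over a range of 0.00998 to 0.41 for all its alternatives. In MacA-2wk all 3 libraries were below MacA-N, but the difference of -0.39 was not called (interval -0.88 to 0.10, adjusted p = 0.581). The response of MacB2 minus that of MacA was 1.24 (interval 0.55 to 1.93, adjusted p = 0.149), and it was called after scaling by the protein-coding sum (1.17, adjusted p = 0.0448, with 0.0448 to 0.452 over all its alternatives).

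The proportion of C5ar1 to C3ar1 was lowest in MacB3 and highest in MacA-N. The median ratio of the C5ar1 to the C3ar1 level within a library was 1.59 in MacB3-3wk and 1.56 in MacB3-2wk. It was 11.1, 3.28 and 2.57 in MacB2 cells from naive lungs, at 2 weeks and at 3 weeks, 19.4 in MacB1-N, 35.8 in MacA-2wk and 1050.1 in MacA-N. Libraries of MacB1-N (8.31 to 20.5) overlapped with those of MacB2-N (9.32 to 11.5) and of MacA-2wk (19.6 to 97.7). C5ar2, which encodes the other C5a receptor and was chosen for mention after its values were seen, had 15.1, 11.1 and 18.3 FPKM in MacB3-2wk and 6.47, 5.68 and 7.98 FPKM in MacB2-2wk. Against C5ar2, the median ratio of C5ar1 stayed between 14.3 and 20.2 in all 8 groups. Single libraries spread more widely, from 8.40 to 17.3 in MacB1-N and from 16.3 to 30.4 in MacB3-2wk.

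**Figure D2:**
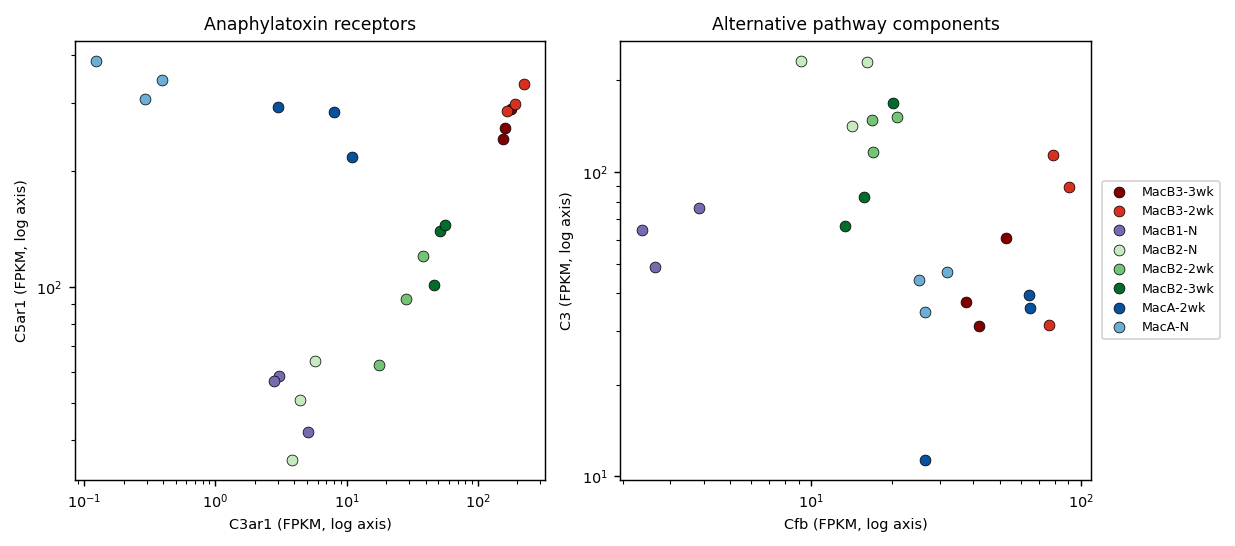
Left, C5ar1 against C3ar1 and, right, C3 against Cfb, in FPKM on log axes, 1 point per library, coloured by group. MacA libraries have C5ar1 above 200 FPKM with C3ar1 below 12 FPKM, MacB3 libraries are high in both receptors, and Cfb separates MacB3 and MacA from MacB1 and MacB2.

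In the alternative pathway, Cfb, which encodes factor B, the protease of its C3-cleaving enzyme, was highest in MacB3-2wk and lowest in MacB1-N. MacB3-3wk libraries had 37.6, 52.7 and 41.8 FPKM and MacB3-2wk libraries 79.0, 76.4 and 90.7 FPKM. MacB2 cells had 16.2, 14.1 and 9.16 FPKM in naive lungs, 16.96, 16.8 and 20.8 FPKM at 2 weeks and 20.1, 15.7 and 13.4 FPKM at 3 weeks, and MacB1-N had 3.85, 2.35 and 2.63 FPKM. Both MacB3 groups lay wholly above all 4 MacB1 and MacB2 groups, and all MacB1-N libraries lay below all others. MacA-2wk had 64.6, 64.5 and 26.4 FPKM, against 26.4, 31.9 and 25.2 FPKM in MacA-N.

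Cfb was called higher in MacB3-2wk than in MacB2-2wk by 2.12 ± 0.28 (limma, adjusted p = 6.58e-05) and in MacB3-3wk than in MacB2-3wk by 1.37 ± 0.28 (adjusted p = 0.00736). All 3 MacB3-3wk libraries were below those of MacB3-2wk, but the difference of -0.89 was not called (interval -1.48 to -0.31, adjusted p = 0.226). In MacB2 cells the tumour made no called difference, with 0.46 at 2 weeks (adjusted p = 0.472) and 0.32 at 3 weeks (adjusted p = 0.478). In MacA-2wk the level of 2 libraries was above every MacA-N library and replicate 3 lay among them. The difference was 0.77 (adjusted p = 0.278), and it was called at 1.19 without MacA-2wk replicate 3 (adjusted p = 0.0167, with 0.00573 to 0.669 over all alternatives). That replicate also had the highest sum of 8 fibroblast markers in its group, 335 FPKM against 37.2 and 33.2 FPKM. Its sum of 7 alveolar macrophage markers was the lowest of the group, 1193 FPKM against 2497 and 2125 FPKM. So was its share of FPKM from protein-coding genes, 10.4% against 22.3% and 21.6%. The part of these features in the level of Cfb was not tested.

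In naive lungs Cfb was lower in both MacB populations than in MacA. The difference was -2.88 in MacB1-N (limma, adjusted p = 1.64e-07) and -1.05 in MacB2-N (adjusted p = 0.00742). The MacB2-N difference fell under 2-fold without MacA-N replicate 2 (-0.96, adjusted p = 0.0342) or MacB2-N replicate 3 (-0.83, 0.0463), over a range of 0.000331 to 0.0463. MacB1-N was also lower than MacB2-N, with a difference of -1.83 (adjusted p = 0.000283). In MacB3-2wk Cfb was higher than in MacB1-N by 4.41 (adjusted p = 2.23e-09).

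Cfp, which encodes properdin, the stabiliser of that enzyme, was raised in MacB3 and nearly level elsewhere. MacB3-3wk had 192, 188 and 154 FPKM and MacB3-2wk 226, 189 and 214 FPKM. The other 6 groups had means between 60.8 ± 14.7 FPKM in MacA-2wk and 88.2 ± 5.57 FPKM in MacB1-N (SD, n = 3 each), with no library above 101 FPKM, and each of these groups overlapped the next. All libraries of MacB1-N, MacB2-2wk and MacB2-3wk nonetheless lay above those of MacA-2wk. MacB2-2wk against MacA-2wk gave 0.54 (interval 0.08 to 0.998, limma adjusted p = 0.0809), which was not called. The difference was 1.26 in MacB3-2wk against MacB2-2wk (limma, adjusted p = 0.000894), 1.02 in MacB3-3wk against MacB2-3wk (adjusted p = 0.0108), 1.80 in MacB3-2wk against MacA-2wk (adjusted p = 5.53e-06) and 1.24 in MacB3-2wk against MacB1-N (adjusted p = 0.000312). No tumour comparison within MacA or MacB2 was called for Cfp.

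The differences of Cfp near 2-fold depended on scaling and on single libraries. At 3 weeks the value was 0.91 after protein-coding scaling and 0.94 after quantile normalization. The call was also lost without MacB2-3wk replicate 2 (0.89), MacB3-3wk replicate 1 (0.96) or MacB3-3wk replicate 2 (0.98). Against MacB1-N the value was 0.96 after protein-coding scaling.

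C3, the central component on which all pathways act, had its highest level in MacB2-N and its lowest in MacA-2wk. MacB3-3wk had 37.3, 60.9 and 31.1 FPKM and MacB3-2wk 114, 31.5 and 89.5 FPKM. MacB2 cells had 229, 141 and 232 FPKM in naive lungs, 117, 149 and 152 FPKM at 2 weeks and 169, 82.7 and 66.5 FPKM at 3 weeks. MacB1-N had 76.2, 64.3 and 48.8 FPKM, MacA-2wk 35.7, 39.6 and 11.3 FPKM and MacA-N 34.8, 46.9 and 44.0 FPKM. Libraries spread widely within groups, and every group overlapped the next in the order of means.

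C3 was called higher in MacB2-N than in MacA-N by 2.21 (interval 1.24 to 3.18, limma adjusted p = 0.00114) and in MacB2-2wk than in MacA-2wk by 2.40 (adjusted p = 0.000713). All MacB3 libraries were below the MacB2 libraries of the same week, with differences of -0.998 at 2 weeks (interval -1.97 to -0.02, adjusted p = 0.192) and -1.22 at 3 weeks (interval -2.19 to -0.24, adjusted p = 0.189), and neither difference was called. MacB2-3wk against MacB2-N gave -0.998 (interval -1.97 to -0.02, adjusted p = 0.143), with overlap. The epithelial marker sum was 610.3 to 870.2 FPKM in MacB2-3wk and 3162 to 10316 FPKM in MacB2-N. It was 3131 to 12889 FPKM in MacB1-N, where all C3 values were below those of MacB2-N. In the groups of the called differences it was 656 to 5331 FPKM in MacA-N, 416 to 2451 FPKM in MacB2-2wk and 123 to 842 FPKM in MacA-2wk. Its part in the levels of C3 was not tested.

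Calls of C3 between MacB1-N and MacB2-N and between MacB3-2wk and MacA-2wk depended on the processing and on single libraries. MacB1-N was lower than MacB2-N, with a difference of -1.64 (limma, adjusted p = 0.037), and the call held without MacB2-N replicate 2 and was lost without each of the other 5 libraries of the 2 groups, with no filter (adjusted p = 0.0503) and after protein-coding scaling (-1.42, 0.0623), with adjusted p from 0.0346 to 0.135 over all alternatives. MacB3-2wk was higher than MacA-2wk by 1.40 (adjusted p = 0.0376), although libraries overlapped. The call was lost with no filter (adjusted p = 0.0552), after protein-coding scaling (1.05, 0.0963) and with only the 2 groups fitted (0.19). Without MacA-2wk replicate 3 the value was 0.85 (adjusted p = 0.202), without MacB3-2wk replicate 1 1.04 (0.176) and without MacB3-2wk replicate 3 1.21 (0.136), over a range of 0.00464 to 0.206.

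The level of C3 relative to that of Cfb within a library was lower in MacB3 and MacA than in MacB1 and MacB2, with no overlap between these 2 pairs of populations. The median ratio was 0.993 in MacB3-3wk and 0.987 in MacB3-2wk, 19.8 in MacB1-N, and 14.2, 7.31 and 5.25 in MacB2 cells from naive lungs, at 2 weeks and at 3 weeks. It was 0.552 in MacA-2wk and 1.47 in MacA-N. Libraries of MacB3-2wk (0.412 to 1.45) overlapped with those of MacA-2wk (0.43 to 0.614) and MacA-N (1.32 to 1.75), and those of MacB1-N (18.5 to 27.4) with MacB2-N (9.99 to 25.4). These ratios are given as a description, with no test.

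In the classical pathway, C4b, which encodes component C4, was low in every group and lowest in naive MacA. It had 8.76, 24.9 and 9.84 FPKM in MacB3-3wk and 11.1, 5.78 and 4.97 FPKM in MacB3-2wk. MacB2 cells had 8.61, 8.98 and 9.65 FPKM in naive lungs, 3.99, 7.29 and 3.65 FPKM at 2 weeks and 4.65, 5.68 and 2.93 FPKM at 3 weeks. MacB1-N had 8.54, 9.27 and 5.78 FPKM, MacA-2wk 5.09, 3.22 and 4.41 FPKM and MacA-N 0.992, 2.10 and 3.41 FPKM. Neighbouring groups in the order of means overlapped throughout.

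C4b was called higher in both naive MacB populations than in MacA-N, by 1.54 in MacB1-N (limma, adjusted p = 0.00371) and 1.74 in MacB2-N (adjusted p = 0.00135). All MacB2-3wk libraries were below MacB2-N, with a difference of -0.93 (adjusted p = 0.0878), and this was called only after quantile normalization (-1.13, adjusted p = 0.0338, with 0.0338 to 0.274 over all alternatives). MacB3-3wk was called higher than MacB2-3wk by 1.40 (adjusted p = 0.042), but 9 of 13 alternatives lost that call, with adjusted p of 0.024 to 0.234. MacB3-3wk replicate 2, at 24.9 FPKM, was the highest of all libraries, and without it the difference was 0.96 (adjusted p = 0.234). The call was also lost without MacB2-3wk replicates 1, 2 or 3 (adjusted p = 0.093, 0.0612 and 0.164) or MacB3-3wk replicate 3 (0.0617). Fibroblasts are a known source of C4, and the sum of 8 fibroblast markers (8 of 8 in the table) was 244 to 374 FPKM in MacB3-3wk and 611 to 1002 FPKM in MacB2-3wk. Their part in the levels of C4b was not tested.

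C2, which encodes the protease partner of C4, stayed at the edge of detection. Its lowest and highest values were 0.84 and 3.24 FPKM in MacB3-3wk, 0.422 and 2.32 FPKM in MacB2-2wk, 0.681 and 2.82 FPKM in MacB2-3wk, 0.967 and 3.51 FPKM in MacB1-N and 0.39 and 1.97 FPKM in MacA-N. The highest of all were 7.95 FPKM in MacB2-N replicate 3 and 6.75 FPKM in MacA-2wk replicate 3, the libraries with the highest endothelial sums of their groups. In MacB2-2wk, replicate 2 had the highest endothelial sum, 442 FPKM, with C2 at 1.66 FPKM. Replicate 3 of that group had C2 at 2.32 FPKM and a sum of 151 FPKM. The part of endothelial cells in the levels of C2 was not tested. MacB3-2wk had 0.52, 0.529 and 0.197 FPKM and MacB2-N 0.925, 0 and 7.95 FPKM, so naive MacB2 libraries ran from a listed 0 to the highest value of all 24. C2 was called in none of the 13 comparisons or 2 tests of a difference in response (limma, Benjamini-Hochberg), and no comparison reached an unadjusted p of 0.05. Its intervals were wide, -2.16 to 0.71 for MacB3-2wk against MacB2-2wk and -1.02 to 1.86 for MacA-2wk against MacA-N.

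Of the regulators, Cd55, which encodes decay-accelerating factor, was highest in naive MacB1 and MacB2 cells and below 2 FPKM in both populations of CD11b+ cells from tumour-bearing lungs. It had 0.421, 0.224 and 0.253 FPKM in MacB3-3wk and 1.24, 0.306 and 0.824 FPKM in MacB3-2wk. MacB2 cells had 4.83, 2.21 and 9.18 FPKM in naive lungs, 1.14, 1.86 and 0.99 FPKM at 2 weeks and 0.601, 0.686 and 1.29 FPKM at 3 weeks. All MacB2-2wk and MacB2-3wk libraries were below all MacB2-N libraries. MacB1-N had 9.93, 6.71 and 5.27 FPKM. In MacA-2wk the level was 1.05, 2.56 and 6.39 FPKM, against 0.31, 1.21 and 1.19 FPKM in MacA-N, with replicate 3 above the others and overlap between the groups.

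Cd55 fell in MacB2-3wk against MacB2-N (difference -1.65, limma interval -2.53 to -0.76, adjusted p = 0.00846). The call was lost without MacB2-N replicate 3 (-1.24, adjusted p = 0.0551) and with only the 2 groups fitted (adjusted p = 0.0596), over a range of 0.00137 to 0.0596. At 2 weeks the difference was -1.32 (adjusted p = 0.124), called after quantile normalization alone (-1.56, adjusted p = 0.0481, with 0.0481 to 0.385 over all alternatives). Naive MacB cells had more Cd55 than MacA-N, by 2.13 in MacB1-N (adjusted p = 0.000686) and 1.64 in MacB2-N (adjusted p = 0.00611), and MacB3-2wk had less than MacB1-N, with a difference of -2.21 (adjusted p = 0.000635). MacB3-2wk against MacA-2wk gave -1.11 (adjusted p = 0.0701) and was called after protein-coding scaling (-1.33, adjusted p = 0.0401) and without MacA-2wk replicate 1 (-1.55, adjusted p = 0.0157, with 0.0157 to 0.324 over all alternatives).

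Endothelial markers, from cells known to express Cd55, were lower where Cd55 was lower in MacB2-3wk and MacB3-2wk, but not in MacB2-2wk. Their sum over 7 genes (7 of 7 in the table, none at 0 throughout a group) was 49.2 to 71.8 FPKM in MacB2-3wk and 112 to 398 FPKM in MacB2-N, and 57.2 to 95.0 FPKM in MacB3-2wk and 386 to 529 FPKM in MacB1-N. In MacA-2wk replicate 3 and MacB2-N replicate 3, where Cd55 was highest in their groups, the endothelial sum was too. In MacB2-2wk, where all Cd55 levels were below those of MacB2-N, the endothelial sum was 135, 442 and 151 FPKM, against 112, 115 and 398 FPKM in MacB2-N. The sum of 8 epithelial markers was 416 to 2451 FPKM in MacB2-2wk and 3162 to 10316 FPKM in MacB2-N, without overlap. Within MacB2-N it was lowest in replicate 3, where Cd55 was highest. In MacA it was 123 to 842 FPKM in MacA-2wk and 656 to 5331 FPKM in MacA-N, while Cd55 was not lower in MacA-2wk. The part of endothelial or epithelial cells in the Cd55 differences was not tested.

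**Figure D3:**
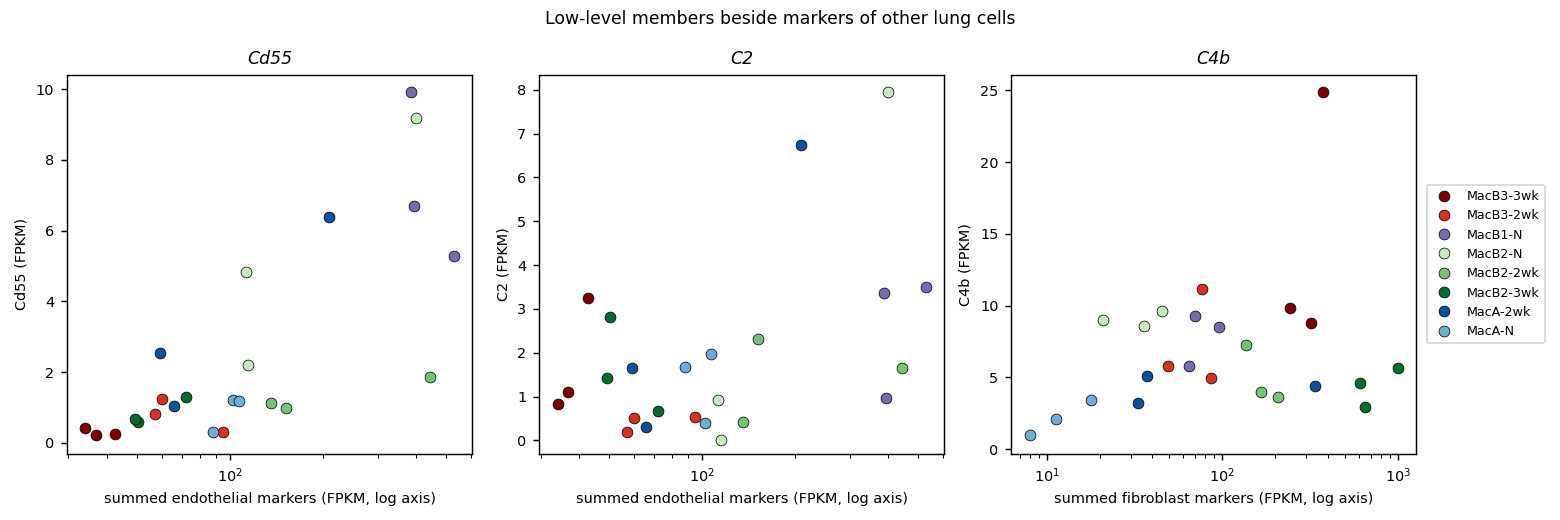
Cd55 and C2 (FPKM, linear) against the sum of 7 endothelial markers, and C4b (FPKM, linear) against the sum of 8 fibroblast markers (horizontal axes, FPKM, log), 1 point per library, coloured by group. Cd55 is above 4 FPKM in 6 libraries, 5 of which have endothelial sums above 200 FPKM. MacB2-2wk replicate 2 has an endothelial sum of 442 FPKM with Cd55 at 1.86 FPKM. The highest C4b value, 24.9 FPKM, is a MacB3-3wk library.

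Cd59a, the regulator that blocks the membrane attack complex, was listed at 4.11 FPKM in MacB2-N replicate 3 and at 0 in the other 2 libraries of that group. All other libraries were below 2 FPKM. MacB3-3wk had 1.48, 1.32 and 1.23 FPKM, MacB3-2wk 1.09, 0.754 and 1.33 FPKM, MacA-2wk 0.0827, 0.0818 and 0 FPKM and MacA-N 0, 0 and 0.384 FPKM. MacB2-2wk had 0.594, 0.576 and 1.03 FPKM and MacB1-N 0.169, 0.836 and 0.734 FPKM, so all 3 MacB3-3wk libraries were above all 3 of each of these groups except MacB3-2wk. Cd59a was called in no comparison or test of a difference in response (limma, Benjamini-Hochberg), and no unadjusted p was under 0.05. In MacB2-3wk, with 0.183, 1.65 and 1.84 FPKM, the difference from MacB2-N was 0.27 (adjusted p = 0.756), and without MacB2-N replicate 3 it was 1.05 (adjusted p = 0.0293, with 0.0289 to 1 over all alternatives).

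Set side by side, MacB3 cells differed from MacB2 cells of the same week in the receptors and in the alternative pathway components other than C3. In MacB3-2wk against MacB2-2wk, 4 of the 9 genes were called higher (C3ar1, C5ar1, Cfb and Cfp) and none lower, where 3.15% of all genes tested were called higher and 4.21% lower. Their linear ratios of mean levels were 6.93, 3.34, 4.52 and 2.41. In MacB3-3wk against MacB2-3wk 5 were called higher (the same 4 and C4b) and none lower, with 1.61% and 1.03% of all genes. After protein-coding scaling, C3ar1 and Cfb remained called at 3 weeks. The median difference of the 9 genes was 0.45 at 2 weeks and 1.02 at 3 weeks, against -0.08 and -0.04 over all genes tested. Libraries did not overlap for 5 genes at 2 weeks (4 higher and 1 lower) and 7 at 3 weeks (5 higher and 2 lower), where 28.1% and 24.1% of all genes did not overlap in either direction.

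**Figure D4:**
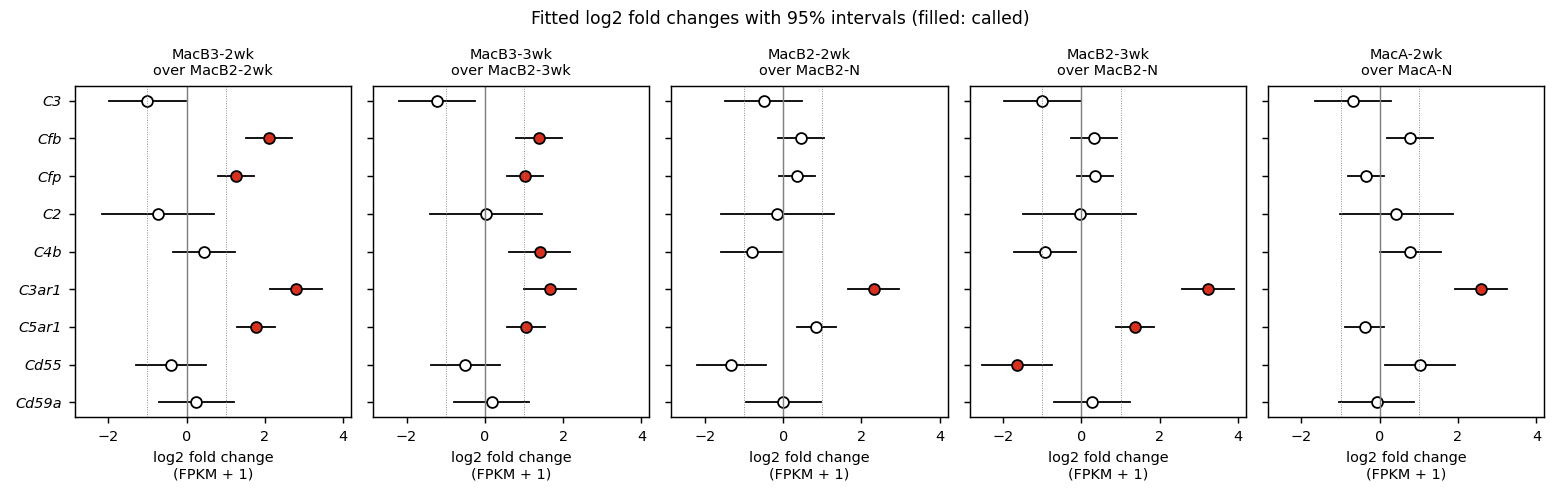
Fitted log2 fold changes of FPKM + 1 (points) with 95% intervals (lines) for the 9 genes in 5 comparisons; filled points were called (adjusted p under 0.05 and 2-fold, dotted lines at 2-fold). C3ar1 is called in all 5 panels, at 2.80, 1.66, 2.31, 3.22 and 2.58 from left to right, and C3 lies below 0 in each with no call.

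Within populations the tumour was accompanied by fewer called differences. In MacB2-3wk against MacB2-N 2 genes were called higher (C3ar1 and C5ar1) and 1 lower (Cd55), where 9.67% and 5.04% of all genes were. MacB2-2wk against MacB2-N and MacA-2wk against MacA-N had 1 gene called higher each, C3ar1, and none lower, where 0.227% and 0.0583% of all genes were called lower. Libraries did not overlap for 4 of the 9 genes in MacB2-3wk, 4 in MacB2-2wk and 2 in MacA-2wk, beside 33.8%, 16.5% and 14.6% of all genes. The median difference of the 9 genes was 0.42 in MacA-2wk, against 0.05 over all genes tested, 0.27 in MacB2-3wk, against 0 over all genes, and 0.00028 in MacB2-2wk, against 0.03 over all genes. Comparisons that share MacB2-N, or MacB2-2wk, are not independent of each other.

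Between weeks no call was made among the 9 genes. MacB2-3wk against MacB2-2wk had 0 called, with 2 genes (C3ar1 and C5ar1) at an unadjusted limma p under 0.05 and 4.34% of all genes called. MacB3-3wk against MacB3-2wk had 0 called, with 2 genes (Cfb and C4b) at an unadjusted p under 0.05 and 0.315% of all genes called. The change between weeks in MacB3 minus that in MacB2 was called for none, 2 genes having an unadjusted p under 0.05 (C3ar1 at -1.14 and C5ar1 at -0.73) and 0% of all genes being called. The response of MacB2 minus that of MacA was called for none either, 4 genes having an unadjusted p under 0.05 (C5ar1, Cfp, C4b and Cd55), with 0.221% of all genes called.

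Among naive cells more differences were called, in comparisons where many genes were. MacB1-N against MacA-N had 3 genes higher (C3ar1, C4b and Cd55) and 2 lower (C5ar1 and Cfb), beside 15% and 8.71% of all genes. The difference of C5ar1 was -2.70 (limma, adjusted p = 3.53e-08) and that of C3ar1 1.84 (adjusted p = 0.000167). MacB2-N against MacA-N had 4 higher (C3, C3ar1, C4b and Cd55) and 2 lower (C5ar1 and Cfb), beside 10.7% and 10.2%. There the difference of C5ar1 was -2.79 (limma, adjusted p = 2.01e-08) and that of C3ar1 2.15 (adjusted p = 2.8e-05). MacB1-N against MacB2-N had C3 and Cfb lower, beside 1.7% of all genes called lower, and none of the 9 higher, beside 3.5%.

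In lungs with a tumour, MacB3-2wk against MacA-2wk had 3 genes higher (C3, C3ar1 and Cfp) and none lower, beside 7.2% and 7.28% of all genes, with C3ar1 at 4.68 (limma, adjusted p = 2.66e-09) and C5ar1 not called at 0.22 (interval -0.27 to 0.71). MacB2-2wk against MacA-2wk had 2 higher (C3 and C3ar1) and 2 lower (C5ar1 at -1.55 and Cfb at -1.36, adjusted p = 5.24e-05 and 0.00122), beside 9.57% and 8.15%. The Cfb call was lost with only the 2 groups fitted (adjusted p = 0.057, with 3.58e-06 to 0.057 over all alternatives). MacB3-2wk against MacB1-N, populations that share CD11b and CD11c and differ in the tumour as well as in CD64, had 4 higher (C3ar1 at 5.43, C5ar1 at 2.54, Cfb and Cfp) and 1 lower (Cd55), beside 8.32% and 13.1%.

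Other genes of the system were taken from a list of 49 names, of which 46 were in the table and 27 were tested. In MacB3-2wk against MacB2-2wk 5 were called higher and 2 lower, beside 3.15% and 4.21% of all genes, led by C1qc (4.48), C1qa (4.70) and C1qb (4.27), the chains of C1q that starts the classical pathway, and by Itgax (2.56), which encodes CD11c, a marker of the sort. At 3 weeks 5 were higher and none lower, beside 1.61% and 1.03%, led by C1qc (3.59), C1qb (3.51), C1qa (3.57) and Itgax (2.47). C1qa had 1727, 1903 and 1961 FPKM in MacB3-2wk and 63.9, 65.1 and 85.4 FPKM in MacB2-2wk.

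With the tumour, 7 of these 27 genes rose in MacB2-3wk against MacB2-N, led by C1qbp, whose product binds C1q, and by C1qc, C1qb and C1qa (1.72, 2.28, 2.54 and 2.15), where 9.67% of all genes were called higher. In MacB2-2wk 3 were called higher, C1qb (1.52), C1qc (1.19) and Cfd, which encodes factor D, the protease that cleaves factor B, beside 1.66% of all genes. Cfd had 1.23, 1.15 and 2.69 FPKM in MacB2-2wk, against a listed 0 in each MacB2-N library. These levels are near the filter of 1 FPKM, and an exact 0 may be a failed estimate, so its call is uncertain. C1qc had 37.9, 16.4 and 37.0 FPKM in MacA-2wk and 0.201, 0.893 and 0 FPKM in MacA-N, with no overlap. In MacA-2wk 4 rose, C1qc (4.49), C1qa (4.27), C1qb (3.64) and Itgam (2.58), beside 0.729% of all genes, and none fell in these 3 comparisons. In MacB2-3wk against MacB2-2wk 3 were higher, Masp1 (1.503), which encodes a lectin pathway protease, C1qc (1.09) and C1qa (1.26), and in MacB3-3wk against MacB3-2wk none was called, where 4.34% and 0.315% of all genes were called. The difference in response between MacB2 and MacA was called for 3, beside 0.221% of all genes, all lower in MacB2: C1qc (-3.29), C1qa (-3.38) and Itgam (-2.58).

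Of the same 27 genes, MacB1-N against MacA-N had 11 higher and 5 lower (beside 15% and 8.71% of all genes), MacB2-N against MacA-N 7 higher and 6 lower (10.7% and 10.2%), and MacB1-N against MacB2-N 1 higher, Itgax, and none lower (3.5% and 1.7%). MacB3-2wk against MacA-2wk had 7 higher and 3 lower (7.2% and 7.28% of all genes), MacB2-2wk against MacA-2wk 10 higher and 4 lower (9.57% and 8.15%), and MacB3-2wk against MacB1-N 8 higher and 7 lower (8.32% and 13.1%). Cr1l, a membrane regulator of C3 convertases in mice that was chosen for mention after its values were seen, was between 25.0 and 57.5 FPKM in all 24 libraries.

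The genes whose group means were most like those of each member were ranked by Pearson's r over the 8 group means of log2(FPKM + 1), among 7942 genes that reached 10 FPKM in a group. For C3ar1 they were Mmp14 (r = 0.984), Ecm1 (0.983) and Pf4 (0.983), and for C5ar1 Mfsd12 (0.989), Dtnbp1 (0.989) and Pdia4 (0.985). Cfp was closest to Dnase1l3 (0.975), Wwp2 (0.969) and Parp1 (0.966), and Cfb to Psmb6 (0.976), Slc7a7 (0.967) and Akr1a1 (0.965). For C3 they were Jmjd1c (0.983), Tpt1-ps3 (0.969) and Sh2b2 (0.966), and for C4b Slc10a7 (0.963), Rad9a (0.92) and Cxxc1 (0.906). Cd55 was closest to Ppp1cb (0.997), Phykpl (0.974) and Lsm14a (0.972), Cd59a to Osgin1 (0.975), Nat9 (0.967) and Wbp11 (0.964), and C2 to Mgea5, Atf7 and Dvl2 (0.898, 0.898 and 0.896). With 8 points and that many candidates such values are a description, and MacB groups share lanes.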

How the data were processed

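RNA-seq values of 24 libraries in 8 groups of 3 were analysed. The tools named in the submitters' processing notes are FastQC, TopHat2 version 2 and Cufflinks 2.0.2, with mm10 as the build, and the deposited FPKM were taken as the output of Cufflinks. The deposited table gives 1 FPKM value per gene and library, its header names no unit, and whether strand was used is not given. The number of reads behind a value is unknown. From the spacing of low values, depth relative to the deepest library was estimated at 0.52 to 1. Library sums were 1880236 to 4868372 FPKM, 43.7% to 75.1% of them from miRNA genes and 10.4% to 27.8% from protein-coding genes, and 12503 to 14324 genes reached 1 FPKM. An exact 0 may be a failed estimate.

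The filter kept 17156 of 37979 genes, those whose mean reached 1 FPKM in any group. A model with 1 mean per group was fitted to log2(FPKM + 1) of all 24 libraries with limma 3.58.1 (R 4.3.3, trended prior, 16 residual degrees of freedom), for 13 pairwise comparisons and 2 differences of differences. P-values were adjusted within each comparison over all tested genes by Benjamini-Hochberg, and the script was tested on simulated data. Pseudocount, filter, 2 scalings, a replicate block, the fitted groups and each replicate were varied. Replicate numbers match the run lane in MacB (1, 2 and 3 on lanes 2, 3 and 7). Over 45 same-numbered pairs of MacB libraries the correlation of deviations from group means had a median of 0.00119 and 1 pair was over 0.1.

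Loci in the table overlapped GENCODE M21 (GRCm38, the assembly of mm10) for 4218 of 32917 matched genes. Most loci thus do not match the build named in the processing notes, and positions are from GENCODE by Ensembl identifier. All 9 members are named, other complement genes by smallest adjusted p (up to 4 per comparison), and the 3 most similar genes per member. Members, lists and motifs were chosen with earlier results of these data known. The design text calls the MacB3 samples of 2 weeks by the 3-week name, and sample titles were followed.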

Additional observations from a re-analysis of the deposited data

How the results depend on the processing

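Of 1876 values of single genes under an alternative, 1822 stayed as they were, called or not called, 43 lost a call, 11 gained one and 0 reversed a called direction. Most of these values were not called in the main fit, so the losses are a larger share of the calls than of all values. A change of sign in a value called in neither fit was counted as kept. C2 in MacB2-N against MacA-N, for example, went from 0.21 to -0.38 with 0.1 added in place of 1. Counts of called members moved by over 1.5 times in 20 of 209 cases. In MacB3-3wk against MacB2-3wk, 5 became 2 after protein-coding sum scaling, 3 after quantile normalization and 2 to 4 with a library left out. In MacB1-N against MacB2-N, 2 became 1 with no filter, 1 after protein-coding scaling and 1 to 2 with a library left out. In MacB2-2wk against MacB2-N, 1 became 2 after quantile normalization, 0 with only the compared groups fitted and 1 to 2 with a library left out. In MacA-2wk against MacA-N, 1 became 0 with only the compared groups fitted, 1 to 2 with a library left out and 2 without MacA-2wk replicate 3 and MacB2-N replicate 3 together, an alternative chosen after seeing the data. For the response of MacB2 minus that of MacA, 0 became 1 after protein-coding scaling. The cause was not tested. The replicate block, over all libraries or by run lane in MacB, changed no call of a member. Cd55 in MacB2-N against MacA-N was lost with only the compared groups fitted (adjusted p = 0.0508, with 0.00151 to 0.0508 over all alternatives).

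Protein-coding scaling shifted the median of all genes by 0.17 in MacB1-N against MacB2-N, 0.10 in MacB2-3wk against MacB2-N, -0.26 in MacB3-2wk against MacA-2wk, -0.15 in MacB2-2wk against MacA-2wk and -0.21 in MacB3-2wk against MacB1-N. Quantile normalization shifted it by -0.15 in MacB1-N against MacA-N, -0.11 in MacB1-N against MacB2-N and 0.12 in MacB3-2wk against MacB1-N. Libraries are pools, 3 per group, and p-values cover the spread between pools. C2, Cd55 and Cd59a lay at levels where the pseudocount sets the size of a difference.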
